A study of Mus musculus and Mus musculus
Oryx dammah with 30 samples.

Results

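Among the genes measured, 10 that build or control the trophectoderm programme were followed through RNA-seq of mouse nuclear transfer (NT) embryos. They were picked by gene name, and each was found among the 53023 genes of the C2C12 and DNA replication experiments and the 55364 genes of the two-cell experiment. The set holds the transcription factors Tead4, Gata3, Eomes, Tfap2a and Tfap2c, the co-activators Yap1 and Wwtr1 (TAZ), the kinases Lats1 and Lats2, and the junctional scaffold Amotl2. Expression is given in FPKM, fragments scaled by transcript length and library total, so that levels of different genes can be compared per length.

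All recipients were BDF1 embryos from in vitro fertilisation of a C57BL/6 × DBA/2 cross, kept from dividing by 0.1 µg/ml demecolcine. Each received a pair of C2C12 cells, a myoblast line of C3H mice. In the C2C12 experiment four-cell embryos were reconstructed at 46 hours post insemination (hpi) and collected at 70 hpi, after culture without α-amanitin (NT, n = 3 pools of 3 embryos) or with it (NT_Amanitin, n = 3 pools of 3). The two-cell experiment used pools of 5 embryos, reconstructed early (21 hpi, collected at 45 hpi) or late (30 hpi, collected at 54 hpi), again without α-amanitin (2cell_NT, n = 6) or with it (2cell_NT_Amanitin, n = 6). The replication experiment compared the four-cell groups D and DR (n = 3 pools of 4 embryos each), in which NT preceded or followed DNA replication of that stage. In the paper these groups received nuclei at different hours and were then cultured equally long. Embryo age at transfer and at collection therefore differs between them, and it cannot be told apart from replication state. The labels do not say which of the letters stands for which state, so differences are given as DR against D only. RNA came from whole NT embryos: transcripts of donor nuclei and of the embryo's own blastomeres cannot be told apart here, and neither can fewer contributing cells and less RNA per cell. The study calls its pools independent biological replicates, and the labels name no separate fertilisation days.

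The trophectoderm is the outer epithelium of the blastocyst and the first lineage to separate in the mouse embryo. In outer cells, which are polarised, the Hippo kinases Lats1 and Lats2 are held inactive, Yap1 and Wwtr1 enter the nucleus, and with the DNA-binding protein Tead4 they switch on trophectoderm genes. In inner cells, angiomotins such as Amotl2 assist the kinases at cell contacts, and phosphorylated Yap1 stays in the cytoplasm. Tfap2c, Gata3 and Eomes act beside or after Tead4 in the same lineage. α-Amanitin blocks RNA polymerase II, and comparing embryos with and without it asks which transcripts need that polymerase during culture.

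Promoter sequence is shown for 3 members, since the set contains both a TEAD factor and proteins of its own pathway. RefSeq promoters (GRCm38.p6) were found for 8 members, in 11 windows from 250 bases before to 50 bases after a start, and no entry was found for Tead4 and Tfap2c. The letters GGAATG, or CATTCC on the other strand, which form the core of the TEAD motif, occurred in 5 of the 11 windows, belonging to Yap1, Wwtr1 (in both of its overlapping windows), Lats2 and Amotl2. Among all 32851 promoters of this length 14.7% held these letters. The AP-2 letters GCCNNNGGC, which read the same on both strands, occurred in 1 window each of Gata3, Yap1 and Lats2, against 16.6% of all promoters. The 250 bases before the start are given for the co-activators and for Amotl2, at chr9:102717554-102717803 on the plus strand (Amotl2), chr3:57575911-57576160 on the minus strand (Wwtr1) and chr9:8004597-8004846 on the minus strand (Yap1), 5′ to 3′, with the TEAD letters in capitals.
Amotl2: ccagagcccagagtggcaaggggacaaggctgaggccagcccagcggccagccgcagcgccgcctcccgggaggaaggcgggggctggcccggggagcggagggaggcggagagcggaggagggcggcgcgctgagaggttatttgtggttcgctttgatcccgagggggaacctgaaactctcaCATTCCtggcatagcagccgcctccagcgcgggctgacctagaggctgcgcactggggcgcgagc
Wwtr1: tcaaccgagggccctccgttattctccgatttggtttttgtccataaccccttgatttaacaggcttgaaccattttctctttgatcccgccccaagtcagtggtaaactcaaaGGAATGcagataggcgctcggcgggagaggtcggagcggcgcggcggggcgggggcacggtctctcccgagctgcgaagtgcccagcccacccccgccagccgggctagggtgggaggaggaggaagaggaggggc
Yap1: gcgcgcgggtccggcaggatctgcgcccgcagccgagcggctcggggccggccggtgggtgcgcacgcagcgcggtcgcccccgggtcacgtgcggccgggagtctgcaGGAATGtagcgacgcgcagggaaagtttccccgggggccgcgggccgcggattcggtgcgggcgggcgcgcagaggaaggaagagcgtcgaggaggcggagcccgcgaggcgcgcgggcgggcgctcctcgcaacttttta
The first TEAD letter lay at position -65 relative to the start in Amotl2, at -136 in Wwtr1 and at -141 in Yap1. In Lats2 the letters lay after the start and outside the upstream stretch. No binding was measured here, and a match is a description of the letters only.

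Libraries held 1136771 to 3101002 reads in the C2C12 experiment, about 4712269 to 10503782 in the two-cell experiment and about 2603946 to 19181377 in the replication experiment. In the two-cell table, 3 columns with α-amanitin (RAm1 to RAm3) and 3 without (R3, r1, r2) have names that begin with R. The oocyte transcript Dppa3 averaged 943 FPKM in the 3 RAm libraries and 7140 FPKM in Am1 to Am3. Oocyte transcripts did not all go the same way. The change without against with α-amanitin, R columns minus the others, was 2.70 for Dppa3 and 3.27 for Zp3. It was -3.53 for Zp2 and -3.64 for Bmp15. The column names do not say which columns are early or late two-cell embryos, so the two-cell values of the members, and the counts of the lists, are also given by name set. Spike-in RNA took 6.54% to 11.3% of reads with α-amanitin and 2.38% to 6.26% without it, which is a log2 ratio of genes to spike-ins of 3.37 ± 0.34 (SD, n = 6) and 4.86 ± 0.56, respectively. Of 12 myoblast markers, 5 were at 0 in every NT library of the C2C12 experiment (Myf5, Myog, Tagln, Col1a1 and Cdh15). The summed level of the myoblast list was 20.4 to 93.1 FPKM without α-amanitin and 88.3 to 294 FPKM with it, with Acta2 as its highest gene (44.96 ± 35.96 against 151 ± 109 FPKM, SD, n = 3). The part of these differences in the results below was not tested.

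In four-cell NT embryos, Wwtr1, Tfap2c, Amotl2 and Lats2 were higher without α-amanitin than with it, on the log2(FPKM + 1) scale by 1.89 ± 0.37 (SE), 2.03 ± 0.50, 2.04 ± 0.38 and 1.36 ± 0.35 in that order. Tead4 and Yap1 did not pass the test, and Gata3, Eomes, Tfap2a and Lats1 were below the level needed for it (FPKM of at least 1 in 3 libraries). Of 9884 genes tested, 11.1% were called higher and 1.13% lower (limma, Benjamini-Hochberg adjusted p under 0.05), or 7.70% and 2.26% with median-of-ratios scaling, and 6.20% were both called and at least 4-fold higher, as Tfap2c and Amotl2 were. Lats2 and Amotl2 reached the filter only through the libraries without α-amanitin, so they could enter the test only by differing, and the count of members called is read no further. With no filter Wwtr1 alone of these 4 was called (adjusted p = 0.0441, limma), with Amotl2 at 0.0858, Tfap2c at 0.0998 and Lats2 at 0.176, and with 0.1 FPKM added Tfap2c (0.0535) and Lats2 (0.0786) were not.

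**Figure D1:**
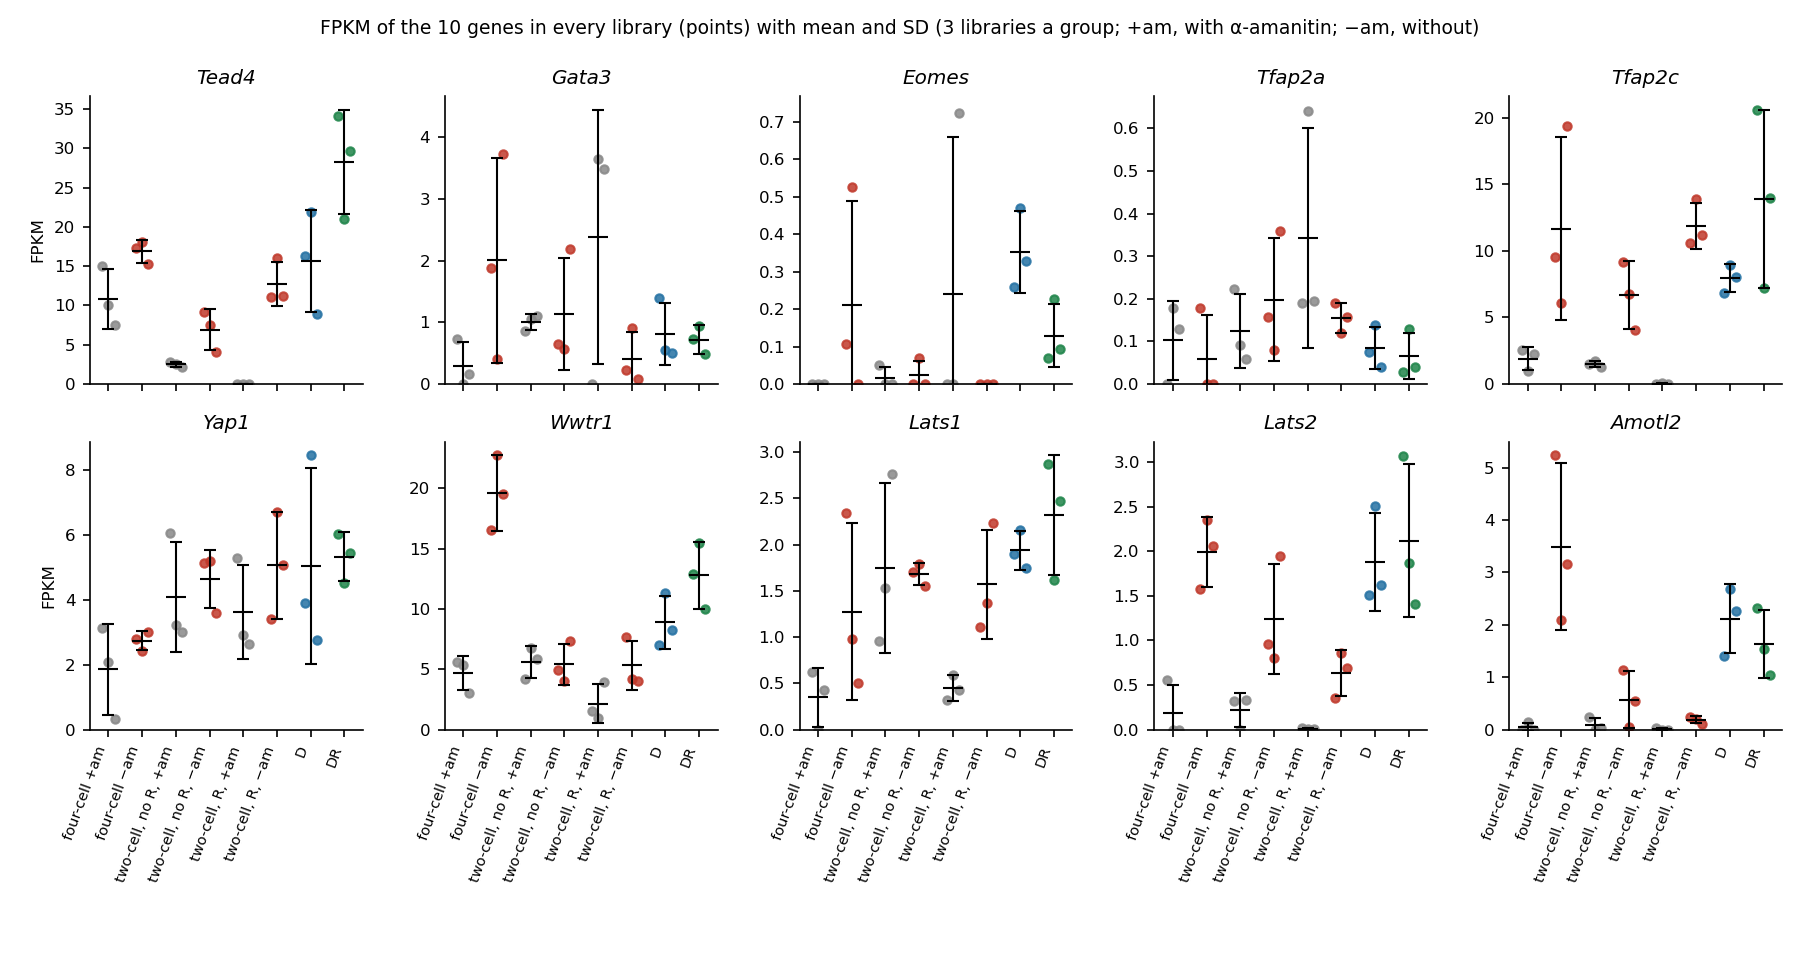
FPKM of each of the 10 members (linear axis, a panel per gene) in every library, for the 8 sets of 3 libraries; points are libraries, and bars are the mean and SD. In four-cell embryos without α-amanitin, Tead4, Tfap2c and Wwtr1 have the highest means, and the RAm libraries of the two-cell experiment hold Tead4 at 0.

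Tead4, the DNA-binding partner of the co-activators, was at 17.3, 18.1 and 15.3 FPKM in the libraries S15, S17 and S7 without α-amanitin and at 14.97, 10.02 and 7.52 FPKM in S16, S18 and S8 with it. Every library without the drug lay above every library with it, by a narrow margin between S7 and S16, and 27.6% of all genes tested showed such a separation. The change was 0.64 ± 0.35 (adjusted p = 0.267, limma). With α-amanitin the mean level of Tead4 was still 10.8 ± 3.79 FPKM (SD, n = 3).

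Tfap2c, an AP-2 factor of outer cells, stood at 9.54, 6.09 and 19.4 FPKM without α-amanitin against 2.54, 0.956 and 2.22 FPKM with it. The groups did not overlap, as for 27.6% of genes tested, and the library S7 was the highest. The 4.08-fold change on this scale passed the test at an adjusted p of 0.0350 (limma). It no longer passed under median-of-ratios scaling (1.77, adjusted p = 0.0583, limma) or without any 1 library other than S16 (adjusted p of 0.0597 without S8, 0.0779 without S17, 0.0992 without S18, 0.122 without S15 and 0.145 without S7).

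The other transcription factors were low. Tfap2a, which acts with Tfap2c in several epithelia, was at 0.179, 0 and 0 FPKM without and 0, 0.179 and 0.128 FPKM with α-amanitin, from at most 2 reads a library. Gata3, a trophectoderm factor downstream of Tead4, was at 1.88, 0.412 and 3.72 FPKM without the drug (17, 3 and 32 reads) and 0.730, 0 and 0.158 FPKM with it, and the ranges overlapped. Eomes, needed later for trophoblast stem cells, was at 0.106, 0.526 and 0 FPKM without α-amanitin, from 5 reads in all, and at 0 in the 3 libraries with it. With α-amanitin a count of 0 allows up to 3 reads, a mean of 0.441 FPKM for Eomes over those libraries.

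Wwtr1 (ENSMUSG00000027803.14, mm10 chr3:57455649-57575910, minus strand) rose without α-amanitin, and Yap1 did not pass the test. Wwtr1 was at 16.5, 22.8 and 19.5 FPKM without α-amanitin and 5.60, 5.34 and 3.03 FPKM with it, a 3.70-fold change (adjusted p = 0.0165, limma) that stood on 581 against 135 reads. The lowest library without the drug lay well above the highest with it, and 27.6% of genes tested were separated between the groups. The call held under median-of-ratios scaling (1.61, adjusted p = 0.0282, limma) and without S16, S18 or S8, but not without S15 (adjusted p = 0.0717), S17 (0.108) or S7 (0.0833).

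Yap1, the relative of Wwtr1, was at 2.80, 2.42 and 3.00 FPKM without α-amanitin and at 3.14, 2.09 and 0.340 FPKM with it. The ranges overlapped, since S16 held the highest value of all 6, and the change was 0.53 ± 0.49 (adjusted p = 0.511, limma). A difference in response between Yap1 and Wwtr1 was not itself tested.

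Of the kinases, Lats2 (ENSMUSG00000021959.16, mm10 chr14:57689662-57758388, minus strand) was at 1.57, 2.35 and 2.06 FPKM without α-amanitin (25, 30 and 31 reads) and at 0.555, 0 and 0 FPKM with it. The groups were separate, as for 27.6% of genes tested. The fitted change was 1.36 ± 0.35 (adjusted p = 0.0397, limma), or adjusted p = 0.176 with no filter, for a gene that entered the test only through the libraries without the drug. The call was lost under median-of-ratios scaling (1.23, adjusted p = 0.0578, limma), without S18 (0.107) and without S8 (0.0936). This table lists a second record of the same name that overlaps Lats2 and is at 0 throughout, so the assignment of reads to Lats2 is uncertain. Lats1 was at 2.35, 0.974 and 0.507 FPKM without the drug and 0.619, 0 and 0.431 FPKM with it, and its ranges overlapped.

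Amotl2 (ENSMUSG00000032531.15, mm10 chr9:102716672-102733418, plus strand) was nearly absent with α-amanitin. It was at 5.23, 2.09 and 3.16 FPKM without the drug (75, 24 and 43 reads) and at 0, 0.140 and 0 FPKM with it, from a single read in S18. That 1 read against 142 gives a ratio of read shares of 132, with an exact binomial 95% interval of 23.3 to 5250 that covers counting error only. The fitted change of 2.04 (adjusted p = 0.0154, limma) depends on the added 1 FPKM and was 4.65 with 0.1 FPKM added. Since Amotl2 reached the filter only through the libraries without the drug, and not at all without S15, S17 or S7, its call is read no further than the read counts.

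**Figure D2:**
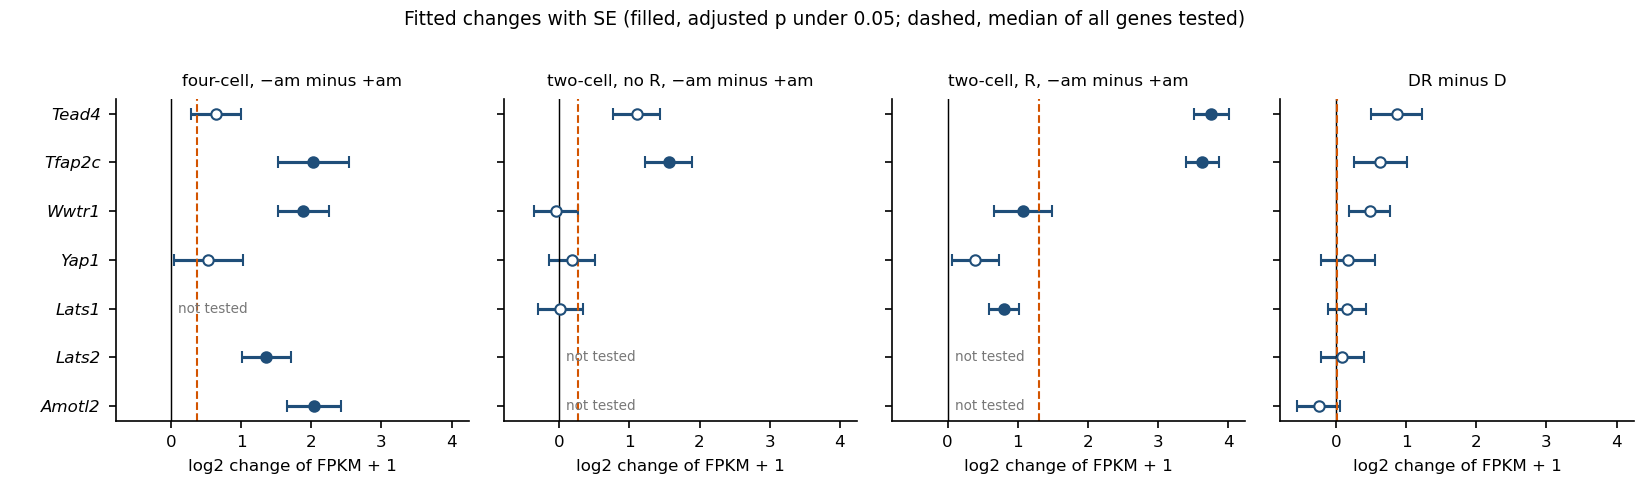
Change of 7 members on the log2(FPKM + 1) scale with its SE (x axis) in a panel each for four-cell embryos, two-cell columns without R, two-cell columns with R, and DR minus D; filled points passed an adjusted p of 0.05, and the dashed line is the median of all genes tested. Tfap2c is filled in each α-amanitin panel and no member between DR and D. Wwtr1, Lats2 and Amotl2 are filled too in four-cell embryos, and Tead4, Wwtr1 and Lats1 in the R columns. In the R columns Tead4, Tfap2c and Lats1 reached the filter only through the libraries without α-amanitin.

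In two-cell NT embryos Tead4 and Tfap2c were higher without α-amanitin, by 2.43 ± 0.45 and 2.60 ± 0.37 on the log2(FPKM + 1) scale (adjusted p of 0.00109 and 0.000213, limma). Yap1, Wwtr1 and Lats1 did not pass the test, and Gata3, Eomes, Tfap2a, Lats2 and Amotl2 were below the filter (FPKM of at least 1 in 6 libraries). Of 13531 genes, 44.0% were called higher and 8.60% lower, and the median change of all genes was 0.83. A call of higher was common in this contrast, and 14.0% of genes were both called and at least 4-fold higher, as Tead4 and Tfap2c were.

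Tead4 (ENSMUSG00000030353.15, mm10 chr6:128224288-128300823, minus strand) was at 9.22, 7.45 and 4.04 FPKM in NT1 to NT3 and at 2.83, 2.59 and 2.18 FPKM in Am1 to Am3. In the other set it was at 11.1, 16.01 and 11.2 FPKM in R3, r1 and r2 and at 0 in RAm1, RAm2 and RAm3. All 6 libraries without the drug lay above all 6 with it, as for 18.8% of genes tested. In the R columns the mean level without the drug was at least 127-fold higher than that of 3 reads in each RAm library. Within sets the change was 3.76 (adjusted p = 1.9e-05, limma) in the R columns and 1.10 (adjusted p = 0.0613, limma) in the others. With the 3 RAm libraries at 0, Tead4 reached the filter of the R columns only through the libraries without the drug, so its call there is read no further.

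Tfap2c (ENSMUSG00000028640.11, mm10 chr2:172549593-172558622, plus strand) followed the same course. It was at 9.17, 6.78 and 4.05 FPKM in NT1 to NT3 and at 1.4997, 1.73 and 1.29 FPKM in Am1 to Am3. In R3, r1 and r2 it was at 10.6, 13.9 and 11.2 FPKM, while RAm1 to RAm3 held 0, 0.0770 and 0.0194 FPKM, about 3 reads in all. The ratio of read shares in the R columns was 368 (exact binomial 95% interval 126 to 1790, counting error only). The change passed the test in both sets, by 3.63 (adjusted p = 1.7e-05, limma) in the R columns and 1.56 (adjusted p = 0.0227, limma) in the others. In the R columns it, too, reached the filter only through the libraries without α-amanitin, whereas all of Am1 to Am3 were above 1 FPKM.

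The change was larger in the R columns for both genes. The difference between sets was 2.66 ± 0.41 for Tead4 (adjusted p = 0.000245, limma interaction) and 2.08 ± 0.39 for Tfap2c (adjusted p = 0.00103). Such a difference was common, since 44.5% of all genes passed this test with a larger change in the R columns and the median difference over all genes was 1.02. With median-of-ratios scaling the differences of Tead4 and Tfap2c were 2.44 and 1.85, where 24.2% of genes passed and the median was 0.32. With spike-in scaling they were 3.02 and 2.51, where 61.0% passed and the median was 1.75, and all of these values were past the threshold. With α-amanitin, both genes were measured in Am1 to Am3 and were at or near 0 in RAm1 to RAm3.

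Neither co-activator passed the test over both sets. Yap1 was at 5.14, 5.19 and 3.61 FPKM in NT1 to NT3 and 3.42, 6.70 and 5.08 FPKM in R3, r1 and r2, against 6.06, 3.21 and 3.01 FPKM in Am1 to Am3 and 5.30, 2.92 and 2.65 FPKM in RAm1 to RAm3. All 4 ranges overlapped, and the change was 0.29 (adjusted p = 0.396, limma). Wwtr1 was at 4.93, 4.04 and 7.31 FPKM in NT1 to NT3 and 4.17, 6.80 and 5.84 FPKM in Am1 to Am3, which overlapped. In the R columns it was at 7.64, 4.23 and 4.07 FPKM without the drug and at 1.55, 0.948 and 3.95 FPKM with it, without overlap, as for 61.5% of genes in these columns. The change there was 1.07 (adjusted p = 0.0447, limma), below the median change of 1.31 over all genes in these columns, where 60.5% of genes were called higher. In the other columns the change of Wwtr1 was -0.050 (adjusted p = 0.925, limma), where 12.7% were called higher, and the difference between sets did not pass the test as deposited (1.12, adjusted p = 0.0932, limma) or with median-of-ratios scaling (0.26, adjusted p = 0.749, limma), but did with spike-in scaling (1.93, adjusted p = 0.00611, limma).

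Lats1 was at 1.70, 1.79 and 1.56 FPKM in NT1 to NT3 and 0.960, 1.53 and 2.76 FPKM in Am1 to Am3. It was at 1.11, 1.37 and 2.23 FPKM in R3, r1 and r2 and lower, at 0.319, 0.593 and 0.431 FPKM, in RAm1 to RAm3. Over both sets its change of 0.41 did not pass (adjusted p = 0.199, limma), but it did without the library Am3 (0.60, adjusted p = 0.0371) and in the R columns alone (0.81, adjusted p = 0.00949), where it reached the filter only through the libraries without α-amanitin. In these columns 60.5% of all genes were called higher, and the change of Lats1 lay below the median of 1.31. The difference between sets for Lats1 passed the test with spike-in scaling (1.22, adjusted p = 0.0304, limma) and not as deposited (0.79, adjusted p = 0.104, limma). With spike-in scaling 61.0% of all genes passed this test with a larger change in the R columns. Its partner Lats2, with 1 record in this table, was at 0.964, 0.806 and 1.95 FPKM in NT1 to NT3 and 0.357, 0.854 and 0.690 FPKM in R3, r1 and r2. With α-amanitin Lats2 was at 0.320, 0 and 0.332 FPKM in Am1 to Am3 and under 0.02 FPKM in RAm1 to RAm3, so every library without the drug lay above every library with it, by a narrow margin between R3 and Am3. Of genes that passed the filter, 18.8% showed such a separation. With no filter the change of Lats2 was 0.77 (adjusted p = 0.0177, limma), where 5517 of 38827 genes were called higher.

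Amotl2 was low in two-cell embryos, at 1.13, 0.0407 and 0.545 FPKM in NT1 to NT3 and 0.245, 0.208 and 0.114 FPKM in R3, r1 and r2. With α-amanitin it was at 0.236, 0 and 0.0269 FPKM in Am1 to Am3 and 0.0357, 0 and 0 FPKM in RAm1 to RAm3. The ranges overlapped over all libraries, though not within the R columns, as for 61.5% of genes tested in these columns. There 35 reads of Amotl2 stood against about 2.1 (ratio of read shares 15, exact binomial 95% interval 3.86 to 129, counting error only). Gata3 was highest in 2 libraries with α-amanitin, RAm2 and RAm3, at 3.64 and 3.49 FPKM, while RAm1 was at 0. Its other values were 0.854 to 1.10 FPKM in Am1 to Am3, 0.574 to 2.19 FPKM in NT1 to NT3 and 0.0772 to 0.910 FPKM in R3, r1 and r2. Eomes was at 0 in 9 of the 12 two-cell libraries, and Tfap2a ranged from 0.0590 to 0.642 FPKM over all of them.

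**Figure D3:**
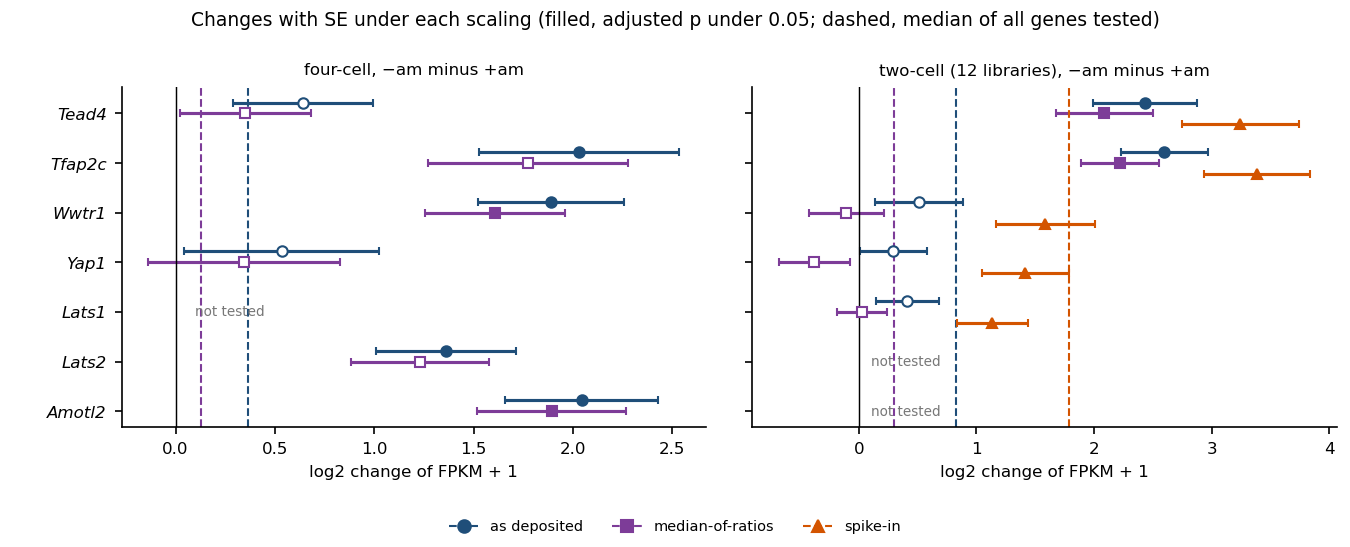
Change on the log2(FPKM + 1) scale with its SE for 7 members under each scaling, in the four-cell and two-cell α-amanitin contrasts; filled points passed an adjusted p of 0.05 and dashed lines are the median of all genes tested. In two-cell embryos Tead4 and Tfap2c stay above the median under every scaling, and Yap1 and Wwtr1 change sign under median-of-ratios scaling.

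The scaling set the level of the two-cell contrast. The median change of all genes was 0.83 as deposited, 0.30 with median-of-ratios scaling and 1.78 with spike-in scaling, with 25.3% of genes called higher and 15.8% lower under the former and 77.7% and 1.34% under the latter. Tead4 changed by 2.43, 2.09 and 3.24 and Tfap2c by 2.60, 2.22 and 3.38 in that order, above the median under each of these scalings. Yap1 changed by 0.29 as deposited, by -0.38 with median-of-ratios scaling and by 1.42 with spike-in scaling. Wwtr1 gave 0.51, -0.11 and 1.58, and Lats1 gave 0.41, 0.03 and 1.14. With spike-in scaling Yap1, Wwtr1 and Lats1 passed the test too (adjusted p of 0.00227, 0.00245 and 0.00253, limma), and all 3 lay below the median.

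Between the DR and D groups of the replication experiment no gene was called among 14570 tested with limma, and 897 had an unadjusted p under 0.05. As deposited, Tead4 had the largest fitted difference among the members tested, though the smallest with spike-in scaling. It was at 34.1, 21.0 and 29.7 FPKM in DR1 to DR3 and 16.2, 21.9 and 8.89 FPKM in D1, D4 and D5. The ranges overlapped by DR2 and D4, and the difference was 0.87 ± 0.37 (adjusted p = 0.788, limma). Tfap2c was at 20.6, 7.19 and 13.9 FPKM in DR and 6.85, 8.93 and 8.02 FPKM in D (0.64, adjusted p = 0.797, limma), again with overlap.

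Wwtr1 was at 12.9, 15.5 and 9.96 FPKM in DR and 7.04, 11.3 and 8.28 FPKM in D, and Yap1 at 6.02, 4.52 and 5.44 FPKM and 3.90, 8.47 and 2.76 FPKM. Both pairs of ranges overlapped. Lats1 was at 2.87, 1.61 and 2.47 FPKM in DR and 1.90, 2.16 and 1.75 FPKM in D, and Lats2, which has a second, overlapping record in this table too, at 3.07, 1.87 and 1.40 FPKM and 1.51, 2.51 and 1.62 FPKM. Amotl2 was the only tested member with a lower fitted level in DR, at 2.33, 1.54 and 1.04 FPKM against 1.40, 2.69 and 2.26 FPKM (-0.25, adjusted p = 0.875, limma). Eomes was the one member whose ranges did not overlap, at 0.0691, 0.226 and 0.0924 FPKM in DR and 0.258, 0.471 and 0.328 FPKM in D, from 1 to 4 reads a library in DR, where 3.99% of tested genes had every D library above every DR library. Gata3 (0.483 to 1.39 FPKM) and Tfap2a (0.0293 to 0.137 FPKM) overlapped between the groups. Spike-ins took 0.0181% to 0.776% of reads here, and scaling by them turned the difference of Tead4, Tfap2c, Yap1, Wwtr1, Lats1 and Lats2 negative (-0.84 to -1.42), with SEs of 1.56 to 2.25, while the median over all genes moved from 0.02 to -1.41.

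Over the 8 sets of libraries, counting both two-cell name sets, the members kept different orders. Tead4 was highest in DR (28.3 ± 6.66 FPKM, SD, n = 3), above the next set, NT of the C2C12 experiment (16.9 ± 1.44), without overlap, though 1 library of D reached 21.9 FPKM, whereas the sets in the second to the sixth place each overlapped their neighbour down to 6.90 ± 2.63 FPKM in NT1 to NT3. Wwtr1 was highest in the C2C12 experiment without α-amanitin (19.6 ± 3.11 FPKM) and did not overlap the next, DR (12.8 ± 2.77). Yap1 spanned a narrow range, from 1.86 ± 1.41 FPKM in NT_Amanitin to 5.33 ± 0.757 in DR, each set overlapping its neighbour. Amotl2 ranged from 3.49 ± 1.60 FPKM in NT to 0.0119 ± 0.0206 in RAm1 to RAm3 with overlap at each step. Tables of different experiments were made separately, so these orders across them are descriptions.

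**Figure D4:**
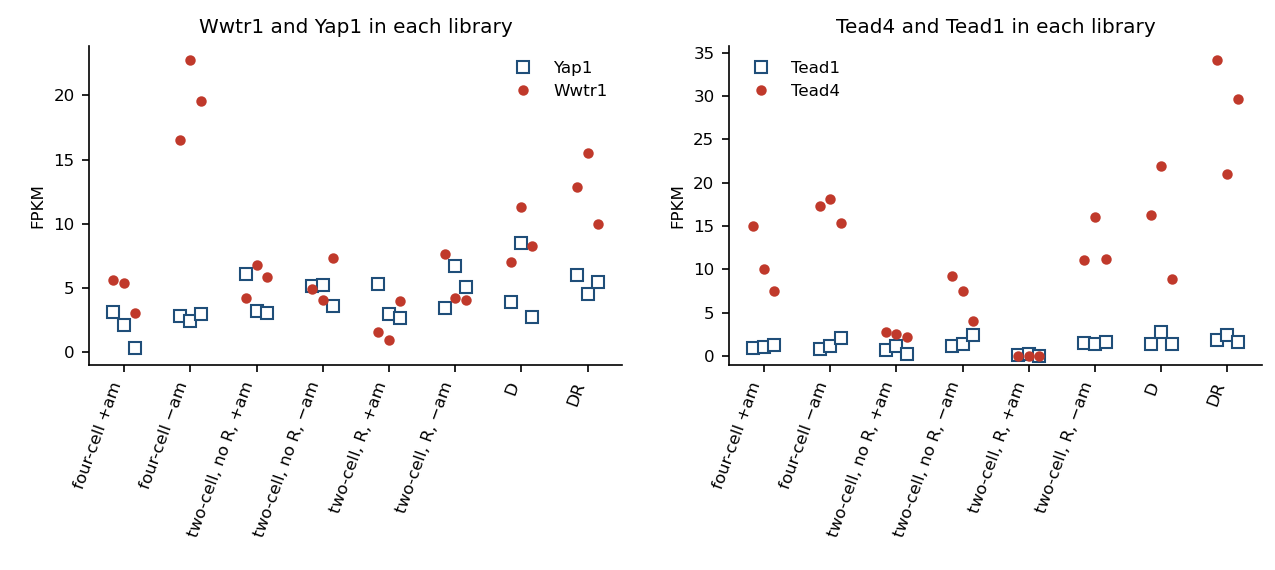
FPKM (linear axis) of Wwtr1 and Yap1 (left) and of Tead4 and Tead1 (right) in each library, for the 8 sets of 3 libraries; circles are the first gene and open squares the second. Wwtr1 exceeds Yap1 in all 6 four-cell libraries of the C2C12 experiment and in all 6 of the replication experiment, but in 2 of 6 two-cell libraries without α-amanitin.

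Related genes are compared within a library, where the scaling cancels. Wwtr1 was 5.91 to 9.40 times Yap1 in the 3 NT libraries of the C2C12 experiment, 1.34 to 3.43 times in the replication libraries, and 0.631 to 2.24 times in the 6 two-cell libraries without α-amanitin, so that Yap1 was the higher of the pair in 4 of these. Tead4 was higher than its relative Tead1 by 7.36 to 22.3 times in NT of the C2C12 experiment and 1.69 to 11.2 times in two-cell embryos without α-amanitin. Tfap2c exceeded Tfap2a in every library without α-amanitin and, with it, in 6 of 9. Lats2 exceeded Lats1 in 6 of all 24 libraries.

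Among the lists around the members, the other trophectoderm genes held the most calls in four-cell embryos. There 3 of the 8 tested (15 listed) rose without α-amanitin and none fell, with a median change of 1.25 against 0.37 over all genes, of which 11.1% were called higher (7.70% with median-of-ratios scaling, where 3 of the 8 were called too). They were Hand1, a factor of trophoblast giant cells (29.9 ± 11.95 against 3.61 ± 4.01 FPKM, SD, n = 3, adjusted p = 0.0194, limma), Klf5, a factor of early lineages (30.2 ± 3.75 against 4.62 ± 4.52, 0.0197), and the keratin Krt18 (9.69 ± 8.24 against 0.230 ± 0.399, 0.0228). Krt18 was under 1 FPKM in each library with α-amanitin and so entered the test only through the libraries where it was high. In two-cell embryos 3 of 4 tested rose, Hand1 (2.57), Klf5 (2.61) and the inhibitor of basic helix-loop-helix factors Id2 (1.49), and 2 of 4 did with median-of-ratios scaling, where 44.0% and 25.3% of all genes were called higher, in that order. Hand1 reached the filter only through the libraries without the drug. In the R columns 4 of 5 tested rose, and in the other columns 2 of 4, Hand1 (2.65) and Klf5 (2.02), while Id2 changed by 0.64 there (adjusted p = 0.333, limma). Of all genes 60.5% were called higher in the R columns and 12.7% in the others. The difference between sets was 1.71 for Id2 and 1.18 for Klf5 (adjusted p of 0.0367 and 0.0301, limma interaction), and -0.16 for Hand1 (0.848). Over all genes the median difference was 1.02, and 44.5% passed this test with a larger change in the R columns. Cdx2, the factor that defines the trophectoderm, was at 0 in 23 of the 24 libraries and at 0.0468 FPKM in the other, RAm1, which had α-amanitin. Among the AP-2, GATA and T-box relatives, Gata6 of the primitive endoderm rose in four-cell embryos (22.9 ± 5.44 against 0.428 ± 0.522 FPKM, 4.10, adjusted p = 0.00267, limma), as 1 of 2 tested, with 1 library with α-amanitin at the filter level. Gata4 rose in two-cell embryos as 1 of 2 tested (1.33, adjusted p = 0.00172, limma), by 1.34 in the R columns and 1.32 in the others. The other, the blood lineage factor Gata1, was called higher in the R columns (3.59) and lower in the others (-1.06, adjusted p = 0.0432, limma), with a difference between sets of 4.66 (adjusted p = 1.2e-05, limma interaction).

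Calls in the Hippo lists of four-cell embryos, which do not hold the members, are set against the 11.1% of all genes called higher. None of 9 kinases and upstream regulators tested (15 listed) passed, with a median of 0.83 against 0.37, nor did any of 5 angiomotins and junctional regulators (median 0.79) or of 2 TEAD relatives and Vgll cofactors (median 0.75). Of 11 polarity genes, 1 rose, Pard6b, a part of the apical Par complex (4.35 ± 1.65 against 0.285 ± 0.493 FPKM, 2.07, adjusted p = 0.0227, limma), and none fell. Pard6b, like Krt18, was under 1 FPKM in each library with the drug. Of 6 YAP and TAZ target genes tested (19 listed), 1 rose, the matricellular Ccn1 (15.2 ± 7.79 against 1.16 ± 2.01 FPKM, 3.18, adjusted p = 0.0218, limma). Only 1 library with α-amanitin reached the filter for Ccn1, and it lay above the filter level.

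In two-cell embryos the same lists went both ways, beside 44.0% of all genes called higher and 8.60% lower and a median of 0.83. Of 11 kinases and upstream regulators 4 rose and 2 fell (median 0.63), with Stk38l (2.16) and Stk38 (1.18), kinases of the Lats family, higher and Wwc2 (-1.88) lower. Of 13 polarity genes 5 rose and 3 fell (median 0.13), among them the apical protein Crb3 (2.42), the small GTPase Rhoa (2.13) and the Crumbs adaptor Pals1 (-1.62). Among 6 target genes (median 0.11) the stress gene Gadd45a (2.01) and the coagulation receptor F3 (1.93) rose, and Tgfb2 (-2.44) was 1 of 2 that fell. Ajuba (1.48) rose and Limd1 (-0.84) fell among 4 junctional genes, and Tead1 (0.90) was the 1 TEAD relative tested. The direction of these counts depends on scaling: with spike-in scaling 9 kinases and upstream regulators, 8 polarity genes, 3 targets and 2 junctional genes were higher and none of these lists had a gene that was lower, and with median-of-ratios scaling the kinases had 1 higher and 2 lower and the junctional genes 0 and 2. In the R columns the kinases had 6 higher and 2 lower of 12, the polarity genes 4 and 3 of 13, the targets 3 and 3 of 7 and the junctional genes 1 and 1 of 5, beside 60.5% and 16.4% of all genes. In the columns without R alone the kinases had 0 higher and 1 lower of 12, the polarity genes 0 and 2 of 12, the targets 0 and 1 of 9 and the junctional genes none of 4, beside 12.7% and 4.18%. Among the genes named here, Wwc2 (-2.75 and -1.01), Pals1 (-1.93 and -1.32) and Tgfb2 (-3.28 and -1.59) fell in both sets, and the difference between sets passed the test for Wwc2 (-1.75, adjusted p = 0.00053, limma interaction) and Tgfb2 (-1.69, adjusted p = 0.00423). Crb3 (3.99 and 0.86), Rhoa (3.42 and 0.85), Stk38l (3.56 and 0.75), Stk38 (1.28 and 1.07), Gadd45a (3.20 and 0.82), F3 (2.44 and 1.42), Ajuba (2.79 and 0.16), Tead1 (1.15 and 0.65) and Limd1 (-1.03 and -0.65) passed in the R columns, given first, and not in the others. The difference between sets passed the test for Crb3, Rhoa, Stk38l, Gadd45a and Ajuba (adjusted p of 7.1e-05 to 0.00349, limma interaction) and not for Stk38, F3, Tead1 and Limd1 (0.269 to 0.75). Such a difference was common: 44.5% of all genes passed with a larger change in the R columns, and the median difference was 1.02. The share was 24.2% with median-of-ratios scaling and 61.0% with spike-in scaling. In the replication experiment no gene of any list was called.

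**Figure D5:**
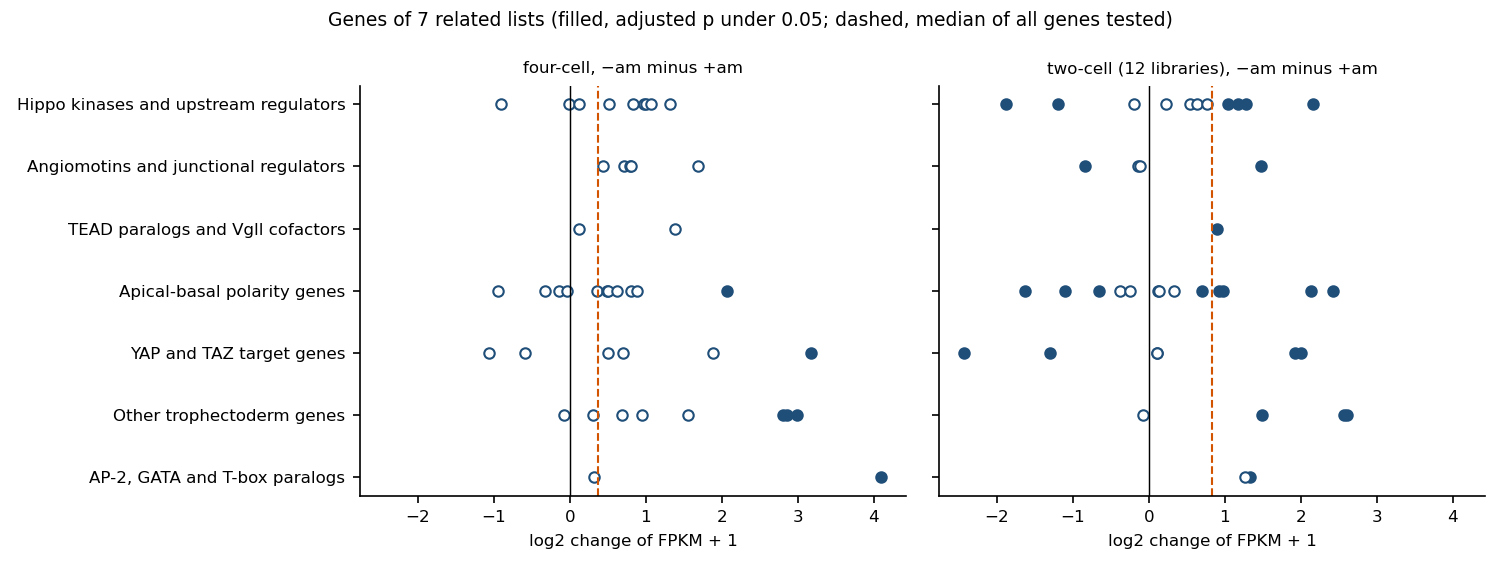
Change on the log2(FPKM + 1) scale (x axis) of every tested gene of 7 lists, without minus with α-amanitin, in four-cell (left) and two-cell (right) embryos; each point is a gene, filled where its adjusted p was under 0.05, and the dashed line is the median of all genes tested. In four-cell embryos 3 of 8 other trophectoderm genes are filled, and in two-cell embryos the Hippo and polarity lists have filled points on both sides of 0.

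Marker lists moved as follows. Oocyte and early embryo transcripts had a negative median in both contrasts, -0.73 in four-cell embryos with 1 of 10 lower without α-amanitin (Zp3, -1.69, adjusted p = 0.0399, limma) and -2.03 in two-cell embryos with 8 of 10 lower (among them Nlrp5, Oosp1 and Zbed3) and 1 higher (Dppa3, 1.77), beside 1.13% and 8.60% of all genes called lower. With spike-in scaling 1 was lower and 1 higher, in the R columns 8 were lower and 2 higher, and in the columns without R alone 4 were lower. Of the myoblast markers none of 4 tested was called in four-cell embryos, and of 3 tested in two-cell embryos 1 was called higher, Col3a1 (3.08), as it was in the R columns (1 of 3 tested) and in the others (1 of 5). Of 10 cumulus and granulosa cell markers 9 were at 0 in the NT libraries of the C2C12 experiment, and Hsd17b1 alone was present (7.69 ± 5.39 FPKM, against 0.482 ± 0.834 with α-amanitin). As the 1 marker of that list tested, Hsd17b1 was called higher without α-amanitin (2.51, adjusted p = 0.0268, limma), also with median-of-ratios scaling (2.34, adjusted p = 0.0378, limma), and its part in the calls of the members was not tested. With α-amanitin the summed level of that list had a median of 0 FPKM, so Hsd17b1 reached the filter mainly through the libraries without the drug. In two-cell embryos the 1 marker of that list tested, Tnfaip6, was called higher in the R columns (1.20, adjusted p = 0.00168, limma) but neither in the others nor over both sets. In the R columns 60.5% of all genes were called higher, and the median change of 1.31 was larger than that of Tnfaip6.

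Across all 24 libraries, with each table centred on its own mean, the genes whose log2(FPKM + 1) followed Amotl2 most closely among 8541 were Zfp955a (r = 0.885), Plk2 (0.878), Clk2 (0.861), Zfp958 (0.861) and Nup62 (0.861), where the 95th percentile of all genes was 0.639. Amotl2 was taken as the member of largest called change in the C2C12 experiment, a place that Tfap2c took without S16 (2.20 against 2.01). Amotl2 reached the filter there only through the libraries without α-amanitin and was not called with no filter (adjusted p = 0.0858, limma). Its place is therefore a rule of selection and not a result. These libraries share groups and depth, so the values are a description.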

How the data were processed

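RNA-seq tables of 24 of the 30 samples were used. The 6 oryx samples were not used. The authors trimmed reads with Trimmomatic, Trim Galore and Cutadapt, mapped them to mm10 with STAR and, per the labels, counted them with featureCounts. They deposited FPKM per gene, relative to the total of each library, and versions are not given in the sources used here. Groups came from sample titles, labels and column names. The two-cell columns R3, r1 and r2 carry no "Am" and were set against RAm1 to RAm3. A further 4 columns of the replication table, whose names identify no sample, were left out. The members and gene lists were chosen with earlier results of these data known.

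From the deposited FPKM, log2(FPKM + 1) was tested with limma 3.58.1 in R 4.3.3 (two-sided, mean-variance trend), for genes at FPKM of at least 1 in as many libraries as a group holds. p-values were adjusted over all genes tested by Benjamini-Hochberg, and a gene was called at 0.05. Spike-in reads are part of the deposited totals of the two-cell and replication tables, and the C2C12 table lists none. The authors' methods scaled by spike-ins, which is an alternative here together with median-of-ratios scaling, pseudocounts, filters and left-out libraries. Reads were recovered from FPKM and length: all values were whole (within 0.02) in the C2C12 table, and 40.6% to 50.8% of values in the others, where read numbers are approximate. Reads carry no molecular identifiers, so intervals and floors of 3 reads cover counting error only. Named were the 10 members, up to 3 called genes of smallest adjusted p per list and α-amanitin contrast, the 5 genes most like Amotl2, and the highest marker of a list. Genes outside that rule, namely Cdx2, Gata1 and markers at 0, were named after their values were seen. The fits were tested on simulated data.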

Additional observations from a re-analysis of the deposited data

Results flagged for a closer look

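Among the 20 member groups of 6 two-cell libraries, 4 held a library that stood far from the rest. Chance gives about 1 in 20, a rate that does not hold for groups mostly at 0, such as Eomes without α-amanitin, where any single value above 0 stands apart. Amotl2 was at 0.236 FPKM in Am1, where the nearest library with α-amanitin was at 0.0357. Eomes was at 0.0687 FPKM in NT2, with 0 in the other libraries without α-amanitin, and at 0.723 FPKM in RAm3, with 0.0511 in the nearest library with it. Tfap2a was at 0.642 FPKM in RAm2, with 0.222 in the nearest. All of these are levels under 1 FPKM.

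The effect of α-amanitin differed between the two-cell name sets for Tead4 and Tfap2c. The log2 change was 2.66 larger in the R columns for Tead4 (3.76 against 1.10, adjusted p = 0.000245, limma interaction) and 2.08 larger for Tfap2c (3.63 against 1.56, adjusted p = 0.00103). Of all genes 44.5% passed this test with a larger change in the R columns, and the median difference was 1.02 (61.0% and 1.75 with spike-in scaling, 24.2% and 0.32 with median-of-ratios scaling). The RAm libraries also differed from Am1 to Am3 in Dppa3 (943 against 7140 FPKM), whose part in these differences was not tested. Other oocyte markers went both ways between the name sets in their α-amanitin change.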

How the results depend on the processing

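Of the member values under alternatives, 45 of 63 in the C2C12 contrast, 101 of 111 in the two-cell contrast and 80 of 88 in the replication contrast kept direction and side of the threshold. In the C2C12 contrast 1205 genes and 4 members were called. With 0.1 added in place of 1 these were 732 and 2, with no filter 284 and 1, with FPKM of at least 5 they were 652 and 2 (3 members tested), and with median-of-ratios scaling 984 and 2. Leaving out 1 library gave 63 (without S7) to 1493 genes (without S16) and 0 to 4 members, with 0 members without S15, S17 or S7, when only 4 members reached the filter, and 2 without S18 or S8. In the two-cell contrast 7116 genes and 2 members were called. FPKM of at least 5 gave 4238 genes and 0 members (1 tested), spike-in scaling 10690 and 5, the R columns alone 11051 and 4, and the other columns alone 2411 and 1. Yap1 turned to -0.38 and Wwtr1 to -0.11 with median-of-ratios scaling, and Wwtr1 to -0.050 in the columns without R. Leaving out 1 library gave 5386 to 7734 genes and 2 to 3 members. In the replication contrast no alternative called a gene. Spike-in scaling turned Tead4 to -0.84, Tfap2c to -0.94, Yap1 to -1.42, Wwtr1 to -1.14, Lats1 to -1.15 and Lats2 to -1.29. Leaving out 1 library gave -0.11 (without D5) to 0.55 for Yap1 and -0.12 (without DR1) to 0.26 for Lats2. Apart from the filters and left-out libraries, which change the genes or samples tested, the cause was not tested. The analyses by column set, and scalings of the difference between sets, were chosen after seeing the data.

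Same-numbered two-cell libraries did not deviate together (correlations 0.018 to 0.072), so the numbers were not taken as pairs. With the number as a replicate block 6511 genes were called and no member's call changed. The C2C12 columns carry adjacent numbers across groups (S7 and S8, S15 and S16, S17 and S18), which the labels do not call pairs. Their deviations correlated at 0.170, 0.069 and 0.027, so they were not taken as pairs either. With these numbers as a replicate block, chosen after seeing the data, 1107 genes and 3 members were called, and Lats2 was not (adjusted p = 0.0687, limma). In the replication contrast, no paired analysis was possible because its columns share only the number 1 between groups. Time of NT was not fitted in the two-cell contrast, since column names do not give it, nor spike-in scaling in the C2C12 contrast. Depth limited the lowest members: in the C2C12 libraries with α-amanitin 3 reads equal a mean of 0.291 FPKM for Amotl2.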
